A study of Mus musculus with 15 samples.

Results

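The 38 genes described here encode proteins of the complement and coagulation systems that hepatocytes secrete into plasma. They were taken by gene symbol from a fixed list, and all 38 were found among the 20101 named genes of the liver ribosome profiling libraries. Each gene was read through 1 RefSeq transcript, the one with most reads, out of the 48 transcripts of these genes in the files. The study sequenced ribosome-protected mRNA fragments from whole livers of wild-type male C57BL/6N mice, 8 to 10 weeks old. All mice had lived under 12 h of light (400 lx) and 12 h of dark for 2 weeks and were moved to constant darkness 24 h before the first livers were taken, and no group received a treatment. Livers of 2 mice were taken at each of 7 circadian times (CT), every 4 h from CT0, the start of the subjective day, through CT12, the start of the subjective night, to CT24. The labels name the last pair CT24 but also give CT00 as its time, and the name was used.

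Complement is a cascade of plasma proteases and binding proteins. Mannose-binding lectins and their proteases, or antibody, lead to cleavage of C4 and C2, all routes meet at cleavage of C3, and C5 to C9 then assemble a pore in the target membrane. In coagulation, zymogens with roman-numbered names activate one another until thrombin turns fibrinogen into fibrin, while antithrombin, heparin cofactor II and proteins C and S hold the cascade back and plasmin dissolves the clot. The liver makes most of these proteins, and several of them, fibrinogen first, are acute phase proteins whose synthesis rises in inflammation.

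Total counts ran from 40593197 to 90458783 per library, and the members together took 1.27% to 2.71% of them. Levels are given as CPM, counts scaled by library size with the TMM method, which sets libraries by the bulk of their transcripts and whose factors ran from 0.738 to 1.46. The 6 clock genes used to check the time labels all followed a 24 h cosine, and the hepatocyte markers were abundant in every library. Several libraries stood apart. In CT16 replicate 2 every nonzero count was even, against 49.0% to 50.4% in the other 13 libraries. A further run of this liver appears in the labels and was not analysed here as a file of its own. With the counts of this library halved, edgeR called the same members by the cosine, by time point and at dusk, and again 0 between CT24 and CT0. Halving leaves each transcript's share of the library nearly unchanged, so these calls could hardly show whether the even counts matter. In CT20 replicate 2 the 7 pancreatic acinar markers summed to 3226 CPM, against 0.159 to 61.9 elsewhere. In CT8 replicate 2 and CT12 replicate 1, Saa1, an acute phase gene that is no member, stood at 124 and 148 CPM, against 11.6 to 25.2 in the other 12 livers. The summed level of 11 acute phase genes outside the members was 7099 and 9193 CPM in these livers and 4207 to 5396 elsewhere. The summed level of the members was also highest there, 23309 CPM in CT8 replicate 2 and 22629 in CT12 replicate 1, and 14570 to 20463 in the other libraries. Of the 38 members, 26 had their highest level in 1 of these 2 livers, and 20 had their lowest in CT16 replicate 2. The part of the acute phase state in these levels was not tested, so counts are given with and without both livers.

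The members were among the most densely read genes of the liver. In whole liver, fewer cells of a type and less RNA per cell cannot be told apart, and ribosome-bound reads alone do not separate the amount of an mRNA from its translation. The density of reads on the coding sequence (CDS), in RPKM, that is reads scaled by CDS length and by the TMM-scaled library, had a median of 116.5 over the 38 members and of 2.43 over the 11621 genes tested. Of the members, 7 ranked in the top 100 of these genes, 25 in the top 500 and 33 in the top 1000, and the median rank was 357. The highest mean, that of Fgg, was 106.5 times the lowest, that of Pros1. The order was led by the 3 fibrinogen chains, followed by Vtn, which encodes vitronectin, an inhibitor of pore assembly, and Serpinc1, which encodes antithrombin. C3, the hub of complement, came sixth with 654 ± 96.1 RPKM (SD, n = 14 libraries), and Plg, the plasmin precursor, seventh with 432 ± 51.4.

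**Figure D1:**
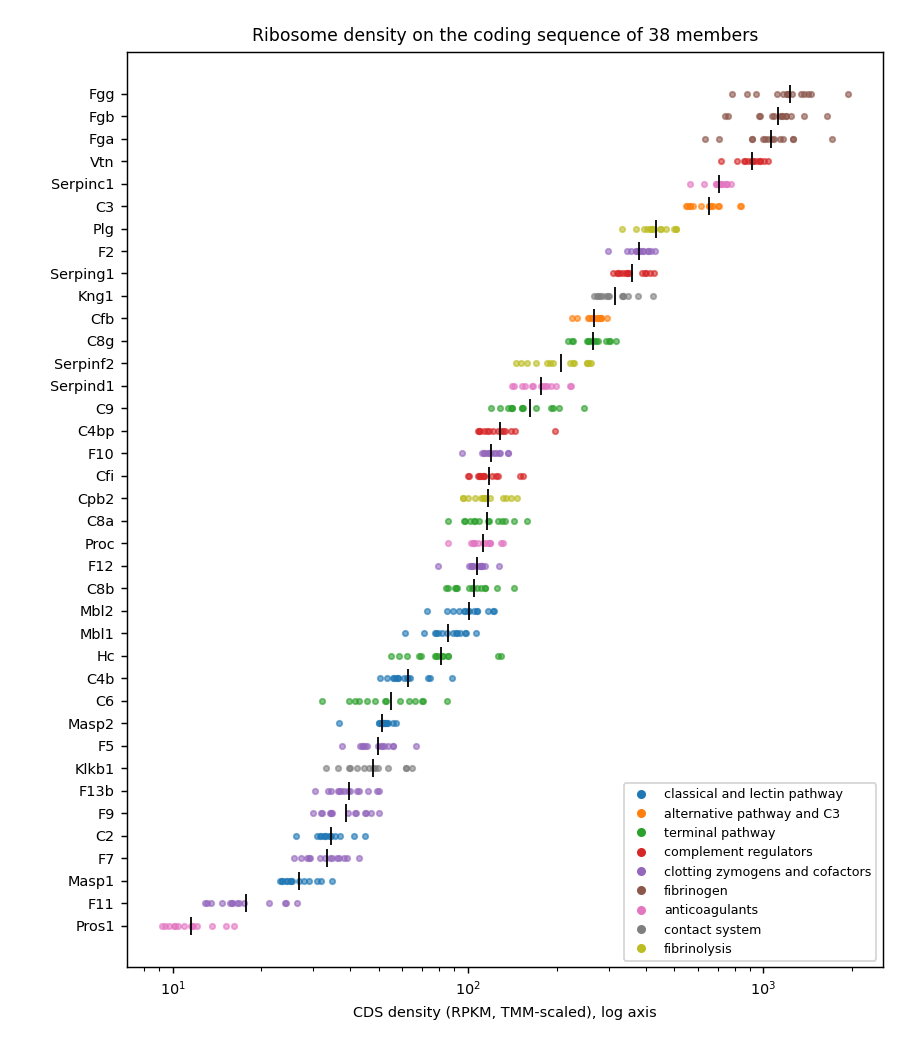
Density of reads on the coding sequence of the 38 members, in TMM-scaled RPKM on a log axis. Each point is 1 of 14 libraries, the black tick is their mean, and colours give the role; the fibrinogen chains stand at the top above 1000 RPKM on average and Pros1 at the bottom with 11.6.

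Vtn had a CDS density of 815 and 869 RPKM at CT0, 931 and 949 at CT4, 1006 and 977 at CT8, 1038 and 858 at CT12, 889 and 721 at CT16, 974 and 914 at CT20, and 912 and 912 at CT24. For Serpinc1 the densities were 745 and 693 RPKM at CT0, 691 and 705 at CT4, 695 and 706 at CT8, 723 and 631 at CT12, 713 and 565 at CT16, 722 and 775 at CT20, and 749 and 755 at CT24. In both genes the lowest library was CT16 replicate 2, and Vtn was denser than Serpinc1 in 14 of 14 libraries. Of the 37 pairs of neighbours in the order of mean density, 4 kept their order in all 14 libraries: Vtn over Serpinc1, C3 over Plg, Masp1 over F11, and F11 over Pros1. In 24 pairs the mean log2 ratio was smaller than its SD over the libraries, and these pairs were not tested except for Fgb over Fga, given with the subunit ratios.

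By role, the densest of the clotting zymogens was F2, prothrombin, with 380 ± 32.9 RPKM (SD, n = 14), while F11, factor XI, had 17.7 ± 4.43. Within the terminal pathway the mean density went from 54.8 ± 14.7 RPKM for C6 to 266 ± 30.4 for C8g. The proteases and lectins at the start of the lectin pathway were low among the members, with 26.8 ± 3.58 RPKM for Masp1, 51.3 ± 4.73 for Masp2, 85.9 ± 12.0 for Mbl1 and 101.2 ± 14 for Mbl2. Pros1, which encodes protein S, the cofactor of protein C, was lowest with 11.6 ± 2.11. For Masp2, Kng1, Proc and F10 another transcript of the gene was denser, and with it their ranks were 377 in place of 773, 94 in place of 131, 351 in place of 373 and 338 in place of 344. C4b and Kng1 have near-identical copies, C4a with 0.396 to 1.15 CPM and Kng2 with 48.0 to 78.7 CPM. The study's methods limit its profiles along transcripts to uniquely placed reads, and whether the deposited counts follow that rule is not given in the sources used here.

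Which members followed the circadian day was asked with a cosine of 24 h fitted by edgeR's quasi-likelihood method to the 17299 transcripts that reached a mean of 10 counts, all members included. Of the 38 members, 7 had a Benjamini-Hochberg adjusted p under 0.05, against 11.2% of all transcripts tested. They were C4b and Mbl1 of complement and F11, Fga, Fgb, Klkb1 and Serpinf2 of coagulation. The phases of the coagulation genes and C4b lay between 5.77 and 9.70 h, in the subjective day, and that of Mbl1 at 2.06 h. The median span of the cosine from trough to peak over the 38 members was 0.30 on the log2 scale, against 0.44 over all transcripts. Over the members, which have more reads than most genes, the median SD of log2 CPM within a time point was 0.17, against 0.28 over 10746 genes.

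Without CT8 replicate 2 and CT12 replicate 1, 4 members passed (Fga, Fgb, Fgg and Serpinf2), of which 3 were among the 7, against 7.42% of all transcripts tested in that fit. The count also fell to 4 without CT0 replicate 1, CT0 replicate 2 or CT8 replicate 2 alone, where 9.28%, 9.65% and 9.41% of all transcripts were called. When library totals replaced TMM as the scale, Mbl1 alone passed, against 8.25% of all transcripts. JTK_CYCLE, the test of the study, with Benjamini-Hochberg adjustment over transcripts, called Fga and Serpinf2 on TMM-scaled values, against 3.51% of all transcripts, and Mbl1 alone on values scaled by the total count, against 2.22%. DESeq2's likelihood ratio test called 9 members, the 7 with Masp1 and Fgg, against 14.7%.

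**Figure D2:**
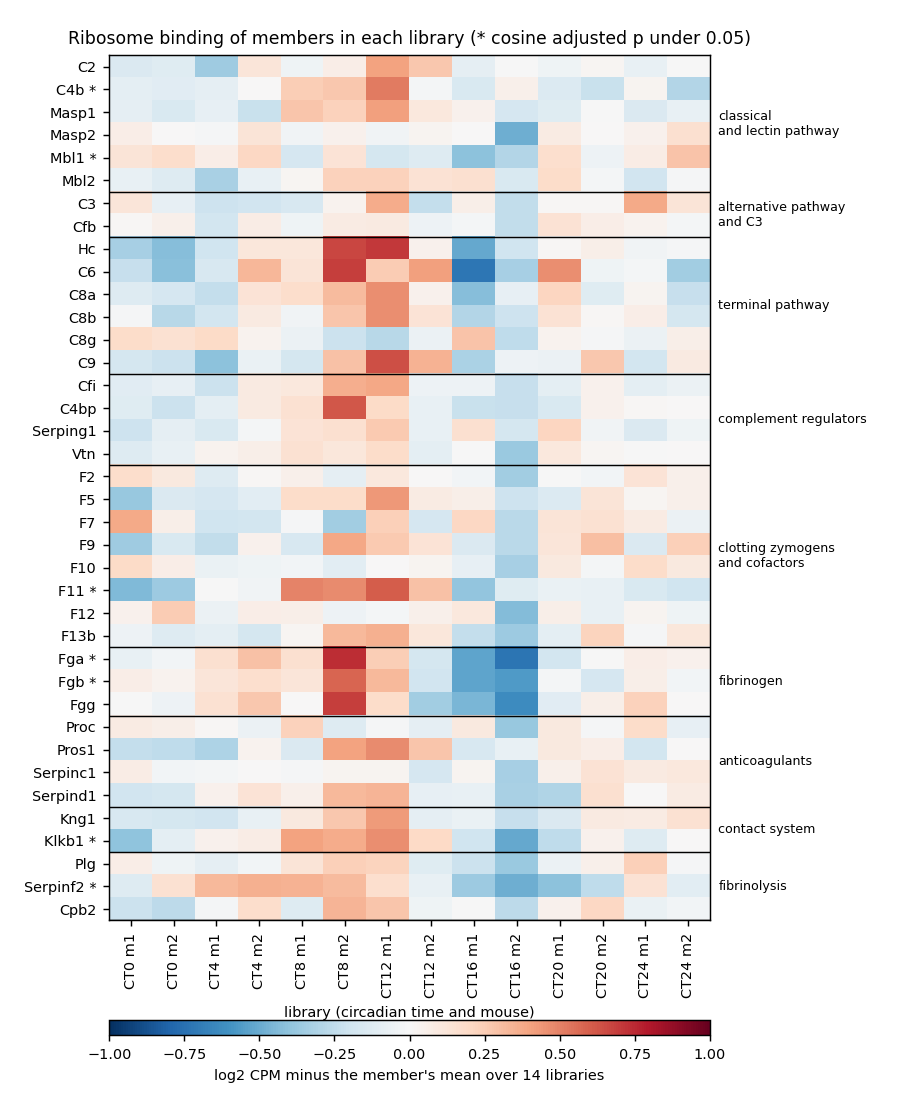
Log2 CPM of the 38 members in each of the 14 libraries (columns, circadian time and mouse), as the difference from the member's mean over all libraries, with rows grouped by role and an asterisk at the 7 members past the cosine threshold. Red columns at CT8 m2 and CT12 m1 are the 2 livers in which 26 members were highest, and CT16 m2, where 20 were lowest, is mostly blue.

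Of the 3 chains of fibrinogen, the soluble precursor of fibrin, 2 passed the cosine test, and the third lay just above the threshold. Fga, the alpha chain, stood at 1739 and 1798 CPM at CT0, 2046 and 2235 at CT4, 2045 and 3042 at CT8, 2166 and 1621 at CT12, 1271 and 1103 at CT16, 1608 and 1822 at CT20, and 1913 and 1887 at CT24. Both livers of CT16 lay below the 12 others, and CT8 replicate 2 lay above all others. The cosine had its maximum at 5.80 h (standard error 0.82 h) and spanned 0.80 ± 0.20 (SE) on the log2 scale from trough to peak (adjusted p = 0.0156, edgeR). Replicates 1 and 2 alone gave phases of 6.20 and 5.39 h.

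Fgb, the beta chain, stood at 1695 and 1658 CPM at CT0, 1754 and 1818 at CT4, 1761 and 2423 at CT8, 2020 and 1417 at CT12, 1120 and 1091 at CT16, 1597 and 1441 at CT20, and 1685 and 1584 at CT24. The fitted maximum of Fgb was at 5.77 h (standard error 0.91 h), with a span of 0.65 ± 0.18 (SE; adjusted p = 0.0382, edgeR). Fgg, the gamma chain, stood at 1587 and 1541 CPM at CT0, 1772 and 1917 at CT4, 1594 and 2565 at CT8, 1809 and 1250 at CT12, 1163 and 1032 at CT16, 1475 and 1657 at CT20, and 1872 and 1599 at CT24. Peaking at 5.08 h with a span of 0.68 ± 0.20 (SE), Fgg missed the threshold (adjusted p = 0.0539, edgeR), although its span was no smaller than that of Fgb. As in Fga, both CT16 livers were the lowest in each of these chains. They were also lowest in the summed level of the stellate cell markers, with 108 and 96.7 CPM against 113 to 152 elsewhere, and of the endothelial cell markers, with 116 and 99.6 CPM against 125 to 160. The Kupffer cell markers summed to 63.4 and 89.8 CPM there, against 75.6 to 116, and the hepatocyte markers to 46638 and 36718 CPM, against 35398 to 49017. The part of these cells in the CT16 levels was not tested. Averaged over the mice of a time point, the highest means were all at CT8 and the lowest at CT16, with ratios of 2.14 for Fga, 1.89 for Fgb and 1.90 for Fgg.

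Without CT8 replicate 2 and CT12 replicate 1, all 3 chains passed, with adjusted p-values of 0.0112 for Fga, 0.0144 for Fgb and 0.0121 for Fgg, and their phases moved to 4.18, 3.80 and 2.84 h. Leaving out 1 library at a time, Fga passed in 14 of 14 fits. Fgb passed in 7 of 14 and missed without either mouse of CT0 or of CT16 and without CT8 replicate 2, CT20 replicate 2 or CT24 replicate 1 (highest adjusted p 0.107). Fgg passed in 3 of 14 fits, without CT8 replicate 1, CT12 replicate 1 or CT20 replicate 2, with adjusted p-values from 0.0290 to 0.170 over all 14. With the total count as scale, none of the 3 passed (0.0707, 0.113 and 0.0801), at spans of 0.76, 0.67 and 0.73 and phases of 3.51, 3.01 and 2.53 h.

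The genes of the 3 chains are neighbours on chromosome 3 in the order Fgg, Fga, Fgb, with gaps of 11096 and 8618 bases and no other protein-coding gene between them. Fgg spans positions 83007724 to 83015056, Fga 83026153 to 83033627 and Fgb 83042246 to 83049863 of GRCm38.p6, a release of the mm10 assembly. Promoter windows from 250 bases before to 50 after the RefSeq start were at hand for 29 of the 38 members; C2, C4b, Masp1, Cfb, Cfi, Serping1, Proc, Kng1 and Plg were not matched. Both strands were searched for an E-box (CACGTG), the element of the core clock activators, a D-box (TTATGTAA), the element of the PAR bZIP factors, a core site of nuclear receptors (AGGTCA) and a core site of HNF1, a hepatocyte factor (GTTAAT). No member window held the E-box or the D-box letters, which occur in 7.15% and 0.938% of the 32851 windows of the table. The AGGTCA letters were found in 12 of the 29 members (41.4%), against 16.3% of all windows, and the GTTAAT letters in 9 (31.0%), against 7.10%. The members share a tissue, and no test was made of these shares.

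The matches of the fibrinogen chains and of Serpinf2, the genes called without the 2 livers of high Saa1, are shown as the letters these promoters did hold. Capitals mark the matched letters, read 5′ to 3′ along the gene's strand (RefSeq, GRCm38.p6), with GTTAAT on the opposite strand as ATTAAC.
Fga, chr3:83026098-83026127, plus strand, HNF1 core site: ccaagggtgatgATTAACctcctgccggtt
Fgb, chr3:83049875-83049904, minus strand, HNF1 core site: aaaatgtcaaatATTAACtaaagggaggta
Fgg, chr3:83007511-83007540, plus strand, AGGTCA: gtttgttgtgggAGGTCAgaaccctgtgtt
Serpinf2, chr11:75439610-75439639, minus strand, AGGTCA: aaccggatgtacAGGTCAatatttaccagc

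Serpinf2, which encodes alpha 2-antiplasmin, the main inhibitor of plasmin, had the lowest adjusted p of the members. It stood at 282 and 343 CPM at CT0, 388 and 396 at CT4, 394 and 384 at CT8, 348 and 294 at CT12, 240 and 220 at CT16, 232 and 260 at CT20, and 342 and 287 at CT24. The 4 livers of CT4 and CT8 lay above the other 10, and the 4 livers of CT16 and CT20 below them. The cosine peaked at 5.91 h (standard error 0.38 h) and spanned 0.82 ± 0.09 (SE; adjusted p = 0.000344, edgeR). It passed in 14 of 14 fits that left out 1 library, with an adjusted p of at most 0.00145, and without both livers of high Saa1 (0.000832). With the total count as scale it did not (0.0949), at a span of 0.75 and a phase of 3.62 h.

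F11, the zymogen of factor XI, and Klkb1, which encodes plasma prekallikrein, are related serine proteases of the contact route of clotting. Their genes lie side by side on chromosome 8, F11 from 45240659 to 45262055 and Klkb1 from 45266688 to 45294835 (GRCm38.p6), with 4632 bases between them. F11 stood at 24.3 and 25.7 CPM at CT0, 33.0 and 32.2 at CT4, 46.5 and 45.8 at CT8, 50.3 and 40.5 at CT12, 25.1 and 30.4 at CT16, 31.5 and 31.4 at CT20, and 29.7 and 28.8 at CT24. The 4 livers of CT8 and CT12 lay above the other 10, and both CT0 livers were low. The cosine peaked at 9.68 h (standard error 0.79 h), with a span of 0.76 ± 0.15 (SE; adjusted p = 0.00446, edgeR).

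Klkb1 stood at 72.2 and 89.5 CPM at CT0, 98.3 and 101 at CT4, 126 and 124 at CT8, 132 and 110 at CT12, 83.2 and 67.3 at CT16, 80.1 and 98.3 at CT20, and 87.5 and 96.0 at CT24. As in F11, the livers of CT8 and CT12 were the 4 highest. Klkb1 peaked at 8.40 h (standard error 0.93 h) by the cosine, which spanned 0.62 ± 0.16 (SE; adjusted p = 0.0243, edgeR). F11 passed in all 14 fits without 1 library, and Klkb1 in 12, missing without CT8 replicate 1 (0.0785) or CT8 replicate 2 (0.0557). Without CT8 replicate 2 and CT12 replicate 1 together, neither passed (0.0595 for F11, 0.127 for Klkb1), at spans of 0.63 and 0.54. With the total count as scale the values were 0.507 and 0.645, at spans of 0.35 and 0.31. The other contact factors, F12 with 143 to 230.5 CPM and Kng1 with 533 to 843 CPM, had adjusted p-values of 0.765 and 0.563.

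Both complement members that passed belong to the first steps of the cascade. C4b encodes C4, cleaved after C1 or the mannose-binding lectins have bound. It stood at 304 and 301 CPM at CT0, 306 and 326 at CT4, 385 and 392 at CT8, 465 and 321 at CT12, 293 and 336 at CT16, 296 and 279 at CT20, and 330 and 266 at CT24. The highest library was CT12 replicate 1, while the other CT12 liver lay within the range of CT16. The fit peaked at 9.70 h (standard error 1.03 h) and spanned 0.45 ± 0.11 (SE; adjusted p = 0.0439, edgeR). C4b passed in 3 of 14 fits, those without CT12 replicate 2, CT16 replicate 1 or CT24 replicate 1, and its adjusted p over the 14 ran from 0.0256 to 0.113. Without both livers of high Saa1 it was 0.320, and with the total count as scale the span shrank to 0.08 and the peak moved to 3.04 h.

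Mbl1 encodes a mannose-binding lectin that recognises microbial sugars. It stood at 75.0 and 77.6 CPM at CT0, 71.7 and 79.1 at CT4, 60.9 and 75.3 at CT8, 60.6 and 62.9 at CT12, 51.5 and 56.0 at CT16, 77.0 and 66.1 at CT20, and 72.1 and 83.5 at CT24. Its lowest levels were in both livers of CT16, and the cosine peaked at 2.06 h (standard error 0.82 h), earlier than in the other called members. The span was 0.46 ± 0.09 (SE; adjusted p = 0.0353, edgeR). It was the sole member called with the total count as scale (0.0279, with a span of 0.83 and the peak at 0.19 h). Leaving out 1 library, it passed in 6 of 14 fits, those without CT4 replicate 1, either mouse of CT8 or of CT20, or CT24 replicate 1, with adjusted p-values from 0.0236 to 0.0908. Without both livers of high Saa1 the value was 0.0554, at a span of 0.49. The related lectin Mbl2, with 86.8 to 127 CPM, had an adjusted p of 0.271 and a fitted phase of 13.3 h.

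**Figure D3:**
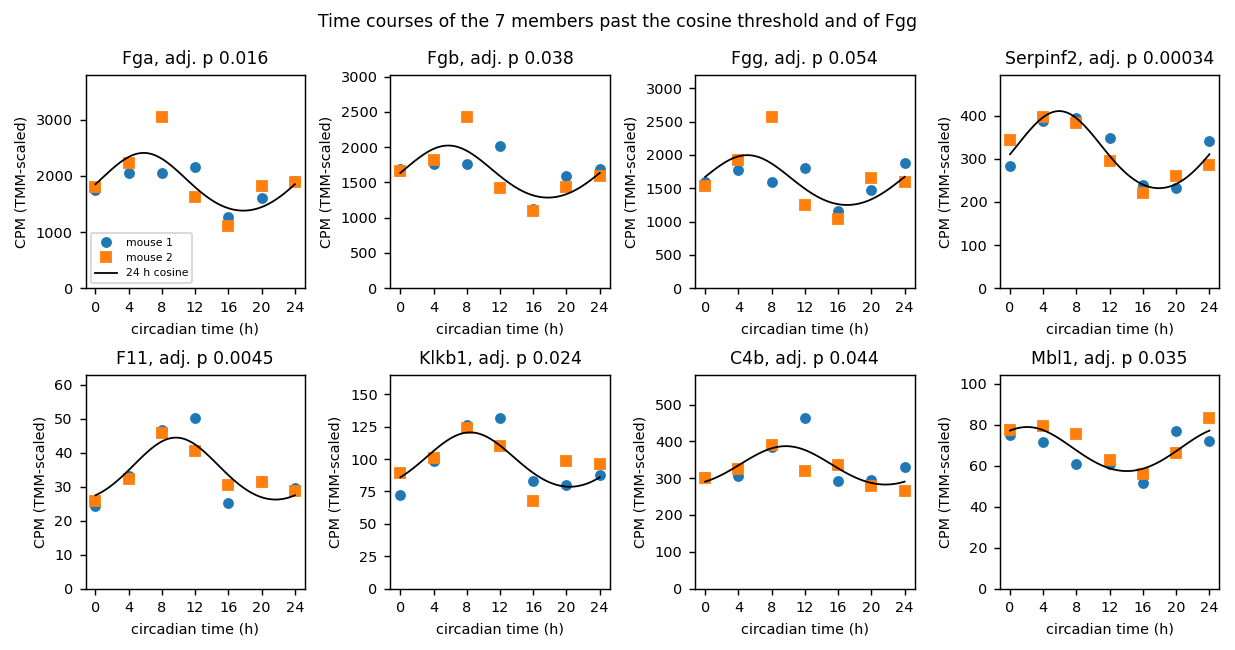
TMM-scaled CPM (vertical axes from 0) against circadian time in h for the 7 members past the cosine threshold and for Fgg, with 1 point per mouse (circles, replicate 1; squares, replicate 2) and the fitted 24 h cosine as a line. The fibrinogen chains have their highest mean at CT8 and their lowest at CT16, Serpinf2 is highest at CT4 to CT8 and lowest at CT16 to CT20, F11 and Klkb1 are highest at CT8 to CT12, and Mbl1 is lowest at CT16.

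The other 31 members did not pass the cosine test. At an unadjusted p under 0.05, 12 members in all were found, against 4210 of the 17299 transcripts, and besides the 7 and Fgg these were Masp1, Hc, C4bp and Pros1. Masp1, a protease bound to the lectins, had an adjusted p of 0.0744, Hc, which encodes C5, 0.120, C4bp, a cofactor in C4b breakdown, 0.124, and Pros1 0.178. C3 ranged from 2748 to 4239 CPM with a span of 0.13 ± 0.17 (SE; adjusted p = 0.849, edgeR), and Cfb, factor B of the alternative pathway, from 527 to 693 CPM with 0.05 ± 0.08 (adjusted p = 0.944). The span of C3 was 0.28 without CT12 replicate 1, 0.37 without both livers of high Saa1 and 0.60 with the total count as scale, with adjusted p-values of 0.421, 0.264 and 0.193. That of Cfb was 0.14 without both livers and 0.52 with the total count (adjusted p = 0.775 and 0.202). Prothrombin (F2), antithrombin (Serpinc1), protein C (Proc) and Plg had peak-to-trough differences of 0.14, 0.16, 0.13 and 0.24 with adjusted p-values of 0.506 to 0.782. A miss of the threshold does not show that these genes were constant. In counts simulated from these libraries, the fit called 22 of 100 transcripts with a peak-to-trough difference of 0.8 and 68 of 100 with 1.6. These were drawn from all transcripts, and the members vary less between mice than most genes.

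In the terminal pathway, C6, which joins C5b in the growing pore, ranged from 80.2 to 214 CPM with a median of 130, and Hc from 287 to 668 CPM with a median of 409. Both were lowest in CT16 replicate 1, Hc was highest in CT12 replicate 1 and C6 in CT8 replicate 2, and the SD of log2 CPM within a time point was 0.26 for Hc and 0.29 for C6. The other genes of the pore spanned 153 to 282 CPM for C8a, 154 to 259 for C8b, 138 to 203 for C8g and 203 to 421 for C9. C8a, C8b and C9 were highest in CT12 replicate 1, the library in which C8g was lowest.

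Of the complement regulators, Cfi, the protease factor I, which cuts C3b and C4b, lay between 183 and 282 CPM, and Serping1, the C1 inhibitor, between 489 and 676. C4bp lay between 166 and 216 CPM in 12 libraries, at 223 in CT12 replicate 1 and at 299 in CT8 replicate 2. Its adjusted p was 0.124 with and 0.536 without both of these livers (edgeR).

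Of the zymogens and cofactors other than F11, F5, the cofactor of factor Xa, ranged from 253 to 444 CPM, F7, which tissue factor binds, from 34.8 to 57.7, and F9, whose loss causes haemophilia B, from 42.5 to 71.0. F10 ranged from 143 to 204 CPM, F2 from 557 to 802 and F13b, the carrier chain of factor XIII, from 62.8 to 103. Their adjusted p-values lay between 0.215 for F5 and 0.811 for F9 (edgeR). F7 and F10 are neighbours on chromosome 8, 1498 bases apart, as F11 and Klkb1 are, but neither passed. Unlike most members, F2, F7 and F10 had their highest level in CT0 replicate 1.

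Among the anticoagulants, Serpind1, heparin cofactor II, ranged from 213 to 336 CPM and Proc from 133 to 203. In fibrinolysis, Plg ranged from 818 to 1249.5 CPM and Cpb2, a carboxypeptidase that protects the clot, from 123 to 187.5. The adjusted p-values of these genes were 0.293, 0.782, 0.506 and 0.649 (edgeR). The inhibitor of plasmin, Serpinf2, was thus called and its target's precursor Plg was not, with fitted maxima at 5.91 and 5.34 h and spans of 0.82 ± 0.09 and 0.24 ± 0.14 (SE), a difference that was not itself tested.

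A course of another shape was sought with an F test over the 7 time points, edgeR's quasi-likelihood method again. It called 4 members (F11, Fga, Klkb1 and Serpinf2), all among the 7, against 7.06% of all transcripts. Serpinf2 had an adjusted p of 0.0205, F11 0.00548, Fga 0.0311 and Klkb1 0.0480. The count ranged from 1 to 6 when 1 library was left out. It was 1 without CT4 replicate 1, CT4 replicate 2 or CT16 replicate 2, leaving F11 each time, against 4.92% to 6.01% of all transcripts. It was 2 without either mouse of CT0 or of CT24 or without CT8 replicate 2, leaving F11 and Serpinf2, against 5.21% to 6.09%. Without both livers of high Saa1 it was 2 (Fga and Serpinf2), against 4.43%. With the total count as scale edgeR called 0 members, against 12.7% of all transcripts, and 5 had an unadjusted p under 0.05, against 29.2%.

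The ends of the subjective day were compared as CT12 minus the mean of CT0 and CT24. Of the 38 members, 4 were higher at dusk at an adjusted p under 0.05 (edgeR), against 3.66% of all transcripts, and 0 were lower, against 3.97%. At an unadjusted p under 0.05, 12 were higher, against 10.2% of all transcripts, and 1 was lower (Mbl1), against 10.7%. The 4 called were F11 with a log2 difference of 0.75 ± 0.14 (SE; adjusted p = 0.00235), C9, the ring-forming last component of the pore, with 0.62 ± 0.17 (0.0281), Hc with 0.61 ± 0.18 (0.0479) and Pros1 with 0.55 ± 0.16 (0.0494). C9 stood at 421 and 344 CPM at CT12, above the 239 and 233 at CT0 and the 238 and 288 at CT24. Hc stood at 668 and 421 CPM at CT12, 326 and 305 at CT0, and 398 and 405 at CT24, and Pros1 at 32.9 and 28.7, 20.0 and 19.8, and 20.9 and 23.8. In each of these genes both CT12 livers lay above all 4 livers of CT0 and CT24, in Hc with a gap between the CT12 livers larger than that to the dawn livers.

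None of the 4 calls held without CT12 replicate 1, 1 of the livers of high Saa1, a fit that leaves 1 liver at dusk. Without it, edgeR called 0 members, against 3.35% of all transcripts in either direction. At an unadjusted p under 0.05, 4 members were then higher, against 7.01% of all transcripts. In that fit the adjusted p was 0.0721 for F11, 0.294 for C9, 0.641 for Hc and 0.330 for Pros1. The log2 differences without it and CT8 replicate 2 were 0.60 for F11, 0.48 for C9, 0.26 for Hc and 0.46 for Pros1. On the scale of the total count they were 0.19, 0.06, 0.07 and -0.02. The count was 1 without CT0 replicate 1, CT0 replicate 2 or CT24 replicate 1, leaving F11, against 5.48% to 5.99% of all transcripts in either direction. It was 2 without CT24 replicate 2, CT4 replicate 1 or CT4 replicate 2, leaving C9 and F11, against 5.84% to 6.72%. Of the 38 members, 32 were higher in CT12 replicate 1 than in replicate 2, with a median log2 difference of 0.28.

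The median dusk minus dawn difference over the members was 0.21, with 26 of 38 above 0, and -0.01 over all transcripts. Without CT12 replicate 1 the median of the members was 0.01. With all libraries the median was highest in the terminal pathway, with 0.49 over 6 genes and 5 above 0, followed by 0.35 in the contact system (2 genes) and 0.33 over the 6 genes of the classical and lectin pathway. Without CT12 replicate 1 these medians were 0.25, 0.15 and 0.17. In fibrinogen it was 0.05 with that liver and -0.21 without it, and in Fga and Fgb the 4 livers of CT0 and CT24 lay between both CT12 livers. C8g and Mbl1 had the most negative differences, -0.25 ± 0.15 (SE; adjusted p = 0.380) and -0.32 ± 0.14 (0.205). With the total count as scale, the median of all transcripts shifted to -0.58 and that of the members to -0.34, with 3 of 38 above 0, and the members then called, Mbl1 and C8g, were lower at dusk, 2 of 38 against 21.2% of all transcripts called in either direction. On that scale, 0 members were higher at an unadjusted p under 0.05 (edgeR), against 1.13% of all transcripts, and 13 lower, against 38.3%. Relative to all transcripts, the members' median was 0.22 higher with TMM and 0.24 higher with the total count. A change of scale moves all transcripts nearly alike, so this gap could hardly depend on it. Without CT12 replicate 1 the gap was 0.01.

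**Figure D4:**
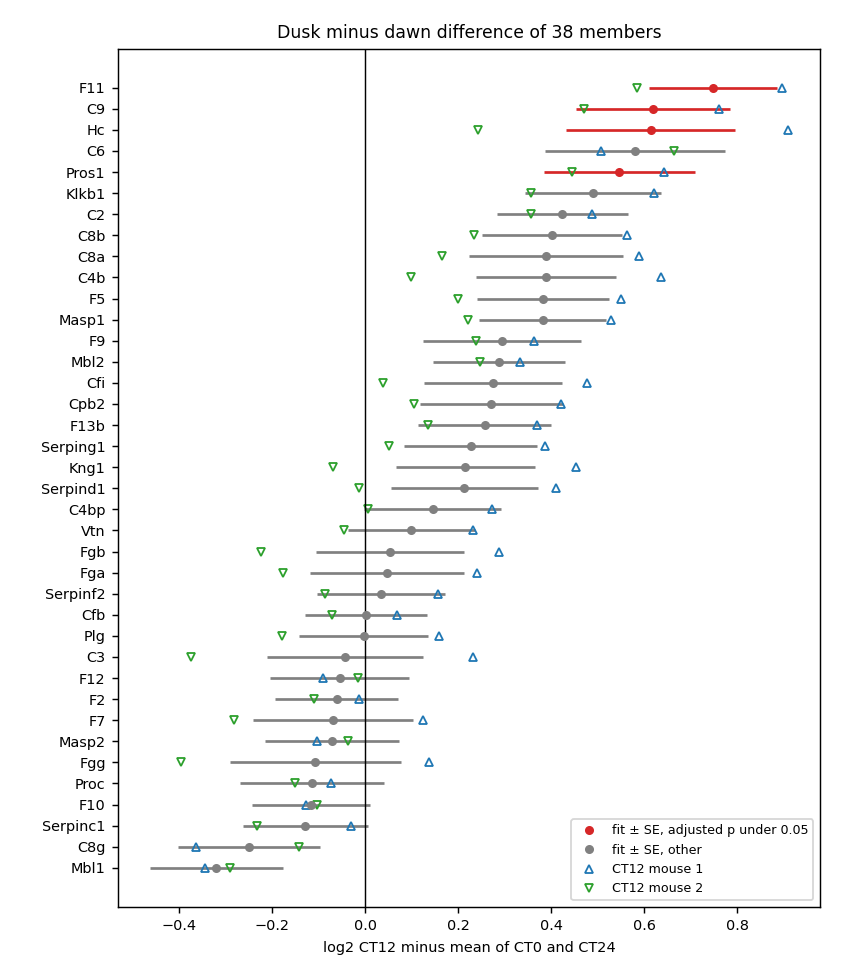
Log2 difference of CT12 from the mean of CT0 and CT24 for the 38 members, with the fitted value ± SE (red at an adjusted p under 0.05, grey otherwise) and the separate values of both CT12 livers as triangles. F11, C9, Hc and Pros1 are red, and the upward triangle of CT12 replicate 1 lies to the right of the downward one of replicate 2 in 32 of 38 members.

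CT24 and CT0 are the same phase 1 day apart. Their difference was called in 0 of 38 members at an adjusted p under 0.05 (edgeR), as in 0% of all transcripts, and 0 members had an unadjusted p under 0.05, against 5.01% of all. The median difference over the members was 0.09 on the log2 scale, with 0.35 ± 0.21 (SE) for Hc and -0.21 ± 0.20 for F7 at the ends. The replicate pairs of F11, Fga and Serpinf2 differed by 0.23 ± 0.16, 0.10 ± 0.19 and 0.01 ± 0.16 between these times. These genes had passed a 24 h cosine fit, which gives CT0 and CT24 the same value. That choice favours small differences here, so they are no separate sign of a rhythm.

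Chains of 1 secreted complex can be set against each other within a library, by the log2 ratio of their CDS densities. Fibrinogen holds its 3 chains in equal number. In CDS density, Fgg exceeded Fga in 14 of 14 libraries, by 0.22 ± 0.10 (SD, n = 14) on the log2 scale or 1.16-fold (exact sign-flip permutation test, two-sided, p = 0.000122, the smallest it can give, and 0.000163 after Benjamini-Hochberg adjustment over 4 ratios). Fgb exceeded Fga in 10 of 14, by 0.08 ± 0.11 or 1.06-fold (exact permutation p = 0.0134, adjusted 0.0134). Over the libraries the log2 ratio to Fga ran from -0.09 to 0.25 for Fgb and from 0.05 to 0.40 for Fgg. With reads and length of the whole transcript in place of the CDS, the ratios were 0.91 and 0.94. The length of Fga then includes a 3′UTR of 1624 nt, with 0.806% of its reads, against 98 nt in Fgb and 200 nt in Fgg. For all 4 ratios, sign flips ask only whether an offset recurs over the libraries. An offset fixed to a transcript, whatever its source, would also recur, and unequal synthesis of the chains was not tested.

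C8 is made of the alpha, beta and gamma chains, 1 of each, and C8g, unlike the other chains, belongs to the lipocalin family. C8a had a CDS density of 105 and 101 RPKM at CT0, 97.2 and 126 at CT4, 130 and 143 at CT8, 158 and 118 at CT12, 85.6 and 109 at CT16, 133 and 106 at CT20, and 117 and 98.0 at CT24. C8b, its neighbour on chromosome 4 at 11130 bases, had 103 and 85.5 RPKM at CT0, 91.0 and 111 at CT4, 101 and 125 at CT8, 144 and 114 at CT12, 84.4 and 90.3 at CT16, 114 and 104 at CT20, and 107 and 91.9 at CT24. C8g on chromosome 2 had 302 and 293 RPKM at CT0, 301 and 270 at CT4, 254 and 227 at CT8, 218 and 256 at CT12, 318 and 225 at CT16, 268 and 263 at CT20, and 252 and 276 at CT24. The ranges of C8a and C8b over the 14 libraries overlapped, while the lowest C8g value exceeded the highest of both other chains.

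C8g was denser than C8a by 1.20 ± 0.39 (SD, n = 14) on the log2 scale or 2.30-fold, in 14 of 14 libraries (exact permutation p = 0.000122, adjusted 0.000163). The ratio was smallest in CT12 replicate 1 with 0.46 and in CT8 replicate 2 with 0.67, the livers of high Saa1, and largest in CT16 replicate 1 with 1.90. C8b lay below C8a in 14 of 14 libraries, by -0.15 ± 0.11 or 0.904-fold (exact permutation p = 0.000122, adjusted 0.000163). This direction turned with whole transcripts, where the ratio of C8b to C8a was 0.57, since the long 3′UTR of C8a holds almost no reads (0.178% of its reads). None of the 4 ratios followed a 24 h cosine after adjustment (100000 shuffles of the time labels, adjusted permutation p from 0.135 to 0.525). The lowest was Fgg to Fga, with an unadjusted permutation p of 0.0338.

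**Figure D5:**
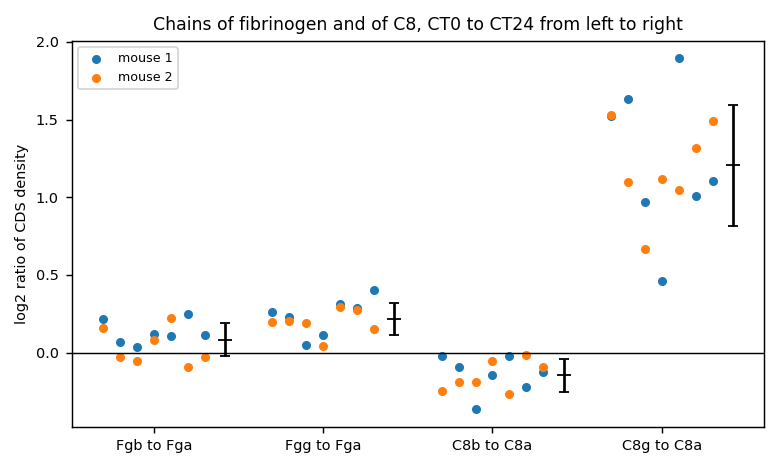
Log2 ratio of CDS density between chains of fibrinogen and of C8, with 1 point per library ordered from CT0 at the left to CT24 at the right of each group, coloured by mouse, and the mean ± SD of 14 libraries in black. C8g to C8a lies between 0.46 and 1.90 in every library, and the other 3 ratios lie between -0.36 and 0.40.

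Reads of the members lay almost wholly in the CDS. The 5′UTR held a median of 1.38% of a member's reads over the 37 members with a 5′UTR in the files, against 3.68% over 11278 genes, and the 3′UTR a median of 0.0521%, against 0.182%. The 5′UTR share ran from 0.0044% in C3, with 122 reads against 2771970 in the CDS, to 31.9% in Mbl2, with 29348 reads. After Mbl2 the highest shares were 9.89% in Mbl1, 8.30% in Proc, 7.39% in C4bp and 7.02% in C6. Per nucleotide, the 5′UTR was denser than the CDS in 6 members (Masp1, Mbl2, Hc, C6, Klkb1 and Fga), or 16.2%, against 17.7% of all genes. The log2 ratio was largest for Masp1 with 1.36 and for Mbl2 with 0.96. The files count whole 5′UTRs, so the position of these reads is unknown.

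Outside the members, 42 further genes of both systems were in the files and 34 had enough reads to be tested. They include components made by other cells, such as C1q of macrophages and von Willebrand factor of endothelium. By the cosine, 2 of the 34 were called, against 11.2% of all transcripts: Cfp, properdin, with a phase of 3.23 h (adjusted p = 0.0445, edgeR) and Pzp, a broad protease inhibitor of the alpha 2-macroglobulin family, with 9.56 h (0.0288). Pzp was also higher at dusk, by 0.50 on the log2 scale (adjusted p = 0.0431), the sole one of the 34, against 3.66% of all transcripts. Its highest levels were in the livers of high Saa1, 4329 CPM in CT8 replicate 2 and 4434 in CT12 replicate 1, against 2420 to 3735 elsewhere. The calls of these further genes are not given without those livers. The median peak-to-trough difference of these genes was 0.40. F8, factor VIII, was read at 20.1 CPM (median over the libraries) and F3, tissue factor, at 0.758.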

How the data were processed

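For each of 14 libraries the authors deposited raw counts of ribosome profiling reads for 28167 RefSeq transcripts, not normalized, with the CDS and both UTRs counted apart. The submitters' processing notes name FastQC, Bowtie2 2.1.0.0, SAMtools 0.1.19.0 and the mm10 build. A read can have been counted for several isoforms of a gene, which raises totals, and the methods state unique placement of reads for the transcript profiles but not for these counts. The 3 counts were added per transcript, and 17299 transcripts with a mean of at least 10 were fitted with edgeR 4.0.16 in R 4.3.3 (TMM, quasi-likelihood, Benjamini-Hochberg over all, threshold 0.05). JTK_CYCLE and the ratio tests were run in Python 3.11.15 with numpy 2.4.6, scipy 1.17.1 and pandas 2.3.3, and DESeq2 1.42.0 served for alternatives. The edgeR, DESeq2 and JTK_CYCLE steps and the sign flips were tested on simulated data. Total counts ran from 40593197 to 90458783 per library. With 2 mice per time an SD rests on 2 values.

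The members and lists were chosen with earlier results of these data known. Every library value was printed for the members past the cosine threshold, the 5 densest and the chains of both complexes. Other scalings, count minimums, CDS reads, 1 transcript per gene, left-out libraries, a replicate block and other tests were alternatives. The even counts, the total without Mup transcripts and the removal of both livers of high Saa1 were added after seeing the data. Names and coordinates came from RefSeq tables of GRCm38.p6, which named 27840 of the transcripts.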

Additional observations from a re-analysis of the deposited data

How the results depend on the processing

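Of the 38 members, 7 were called by the cosine. Counts were 4 without both livers of high Saa1 (7.42% of all transcripts) and 1 with the total count as scale (8.25%). JTK_CYCLE called 2 on values scaled by TMM (3.51%) and 1 on values scaled by the total count (2.22%). Leaving out 1 library gave 4 to 7 (8.61% to 11.9%). By time point 4 were called, 0 with the total count (12.7% of all transcripts) and 2 with the total count without Mup transcripts (8.1%). Fits without a library leave 1 liver at its time point, and their counts are given with that test above. At dusk 4 were called, 2 with the total count, 2 with the total count without Mup transcripts (10.4% of all), 2 with upper quartile scaling (7.57%), 0 without both livers, and 0 to 5 when 1 library was left out. The count for CT24 minus CT0 was 0 in every fit run. With the total count, C4b moved by over 6 h in phase at a peak-to-trough difference of 0.0763, and Pros1 turned at dusk to -0.0172. The ratio of C8b to C8a was 0.574 with whole transcripts and -0.156 to -0.129 when 1 library was left out. The other ratios then ran from 0.0711 to 0.0971 (Fgb to Fga), 0.201 to 0.228 (Fgg to Fga) and 1.15 to 1.26 (C8g to C8a). DESeq2's likelihood ratio test called 9 members, against 14.7% of all transcripts. Apart from the ratio of C8b to C8a, which follows the length of the 3′UTR, the cause of these moves was not tested. The replicate numbers did not pair the mice: same-numbered deviations correlated with r from -0.0582 to 0.173, over 0.1 in 3 of 21 pairs of time points. With the replicate block 7 members were called by the cosine (11% of all transcripts), 3 by time point (7.3%, Klkb1 no longer passed), 4 at dusk (7.88%) and 0 between CT24 and CT0 (0.0347%).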
